A study of Mus musculus with 9 samples.

Results

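HIF-2α (gene symbol Epas1) was delivered to mouse calvarial pre-osteoblasts by an adenoviral vector, Ad-Hif2a, and the transcripts of those cells were set against cells given a control vector, Ad-C. All 3 Ad-Hif2a libraries and all 3 Ad-C libraries entered the comparison, out of 9 libraries in the series, the other 3 being from cells given Ad-Hif1a. The comparison covers all 40213 gene symbols of the count tables, of which 14413 had enough counts to be tested.

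Both groups were primary cells of wild-type ICR pups, labelled WT with Ad-C and Hif2a overexpression with Ad-Hif2a. Cells of both groups were infected on day 3 and kept in osteogenic medium with 50 μg/ml L-AA (ascorbic acid) and 5 mM β-Gp (β-glycerophosphate, a phosphate source) until day 6, under normoxia. The vector reaches any cell of the dish that it can infect, and the promoter that drives the insert and the share of cells infected are not given in the sources used here. The study's general notes on statistics take n as independent experiments or mice, while nothing in the labels ties a given library to a separate culture or litter. The p-values therefore measure the spread between these libraries, which may be technical in part.

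HIF-2α is the oxygen-regulated subunit of a transcription factor. It pairs with ARNT and binds hypoxia response elements near its target genes, and prolyl hydroxylases (the EGLN enzymes) together with the VHL protein mark it for degradation when oxygen is present. In bone it is known as a negative regulator of osteoblast maturation, and in cartilage as an inducer of matrix-degrading proteases. The comparison asks which transcripts follow when its level is raised in differentiating osteoblasts without a fall in oxygen.

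Among genes of high average level, the largest rises were in genes of the acute-phase response, neutrophil- and monocyte-attracting chemokines and matrix proteases. Saa3, Lcn2, Hp, Cxcl5, Cxcl1 and Mmp3 led these rises. Egln3, a classical target of HIF, rose together with the glucose transporter gene Slc2a1 and the lactate transporter gene Slc16a1. Runx2, Sp7, Alpl and Bglap, genes of the osteoblast program, fell, but each of these calls was lost on omitting Ad-C replicate 1 or 3. Of 11 osteoblast markers 1 rose and 4 fell, and Spp1, Sparc and Ibsp did not pass. Tnfsf11, which encodes RANKL, rose from a mean of 1.2 to 42.9 CPM (counts scaled to a common library total). Macrophage markers such as Mrc1 and Csf1r, and the growth factor receptors Fgfr2 and Fgfr3, fell. These genes were chosen from lists written with earlier results known, so the counts below describe the response and do not test the choice.

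Of the 14413 genes tested, 2247 changed at an adjusted p under 0.05 (15.6%), of which 1135 rose (7.87%) and 1112 fell (7.72%). These shares are the background for the counts of every list below. The share called was under 15.6% for interferon-stimulated (10.3%), integrated stress (9.52%), hedgehog and Notch (9.09%) and clock genes (7.14%). It was also lower for nuclear (5.88%) and mitochondrially encoded (0%) genes of respiration and for smooth muscle markers (12.5%). Every adjusted p here is from the quasi-likelihood test of edgeR with Benjamini-Hochberg adjustment over all genes tested, in a fit that holds the 9 libraries and has terms for group and for replicate number. More than 2-fold changes were seen in 1617 genes, 863 up and 754 down. The 3 libraries of one group lay wholly above or below the 3 of the other in 7130 genes (49.5%), above in 3453 (24%) and below in 3677 (25.5%), so a lack of overlap alone is common here. The median log2 fold change of all genes was 0.0127, and their median standard error (SE) 0.249. Each SE was derived from the test, as the absolute log2 fold change over the square root of its F statistic. The count of changed genes depended on single libraries and was 688, 1014 and 769 on omitting Ad-C replicate 1, 2 and 3, 1388 on omitting Ad-Hif1a replicate 2 and 1063 on omitting Ad-Hif2a replicate 1. Every one of the 2247 genes kept its sign in each of these fits. That was nearly given, because the genes were called on the same libraries and had the same direction in all same-numbered pairs. Where a list below held no rise or no fall, 0 of its members moving that way had an unadjusted p under 0.05 and DESeq2 called 0 of them, unless other counts are given.

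**Figure D1:**
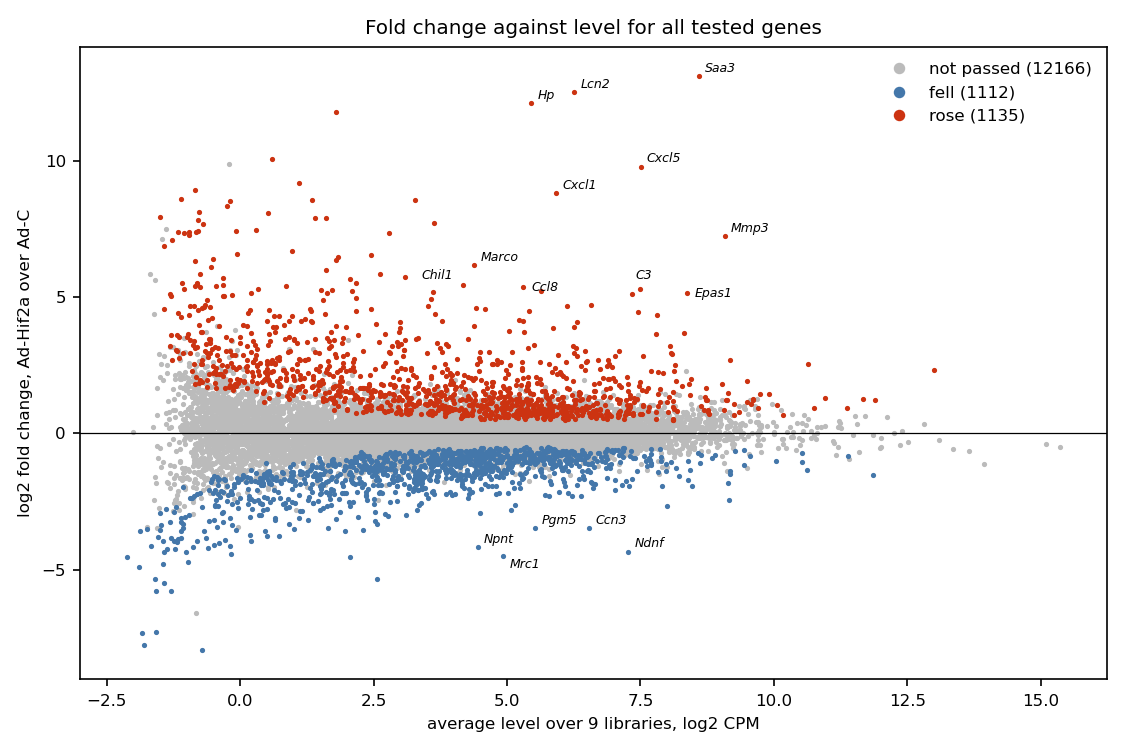
Log2 fold change of Ad-Hif2a over Ad-C (vertical) against the average log2 CPM over the 9 libraries (horizontal) for the 14413 genes tested, with the 1135 that rose in red, the 1112 that fell in blue and the others in grey. Saa3, Lcn2 and Hp stand highest among the genes of high average level, and Mrc1, Ndnf and Npnt lowest.

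The libraries held 14372589 to 18623403 counts. Ad-Hif2a replicate 3 was the shallowest and stood apart from its group: its median absolute log2 difference was 0.50 to replicate 1 and 0.586 to replicate 2, against 0.236 between those and 0.115 to 0.152 among the Ad-C libraries. Mitochondrially encoded genes took 2.71% of its counts, 4.99% and 5.58% in the other Ad-Hif2a libraries and 5.73% to 6.17% with Ad-C. With Ad-Hif1a they took 2.84%, 3.56% and 5.33% in replicates 1, 2 and 3. The difference of Ad-Hif2a replicate 3 ran with transcript length. Genes were split by transcript length into 4 equal groups. Among the shortest (up to 2059 bases) it lay a median of 0.48 above the mean of the other Ad-Hif2a libraries on the log2 scale, and among the longest (over 4740 bases) 0.46 below. Replicate 2 ran from -0.38 to 0.40 and replicate 1 from -0.10 to 0.06, and the Ad-C libraries stayed between -0.07 and 0.06. The deviations of a group cancel in each gene, because each is taken from the mean of the other libraries. A trend in replicate 3 thus gives opposite trends in the others, and that of replicate 2 is in part its mirror image. Such trends were not confined to the Ad-Hif2a libraries. With Ad-Hif1a, replicate 1 ran from 0.32 to -0.30 and replicate 3 from -0.29 to 0.26, and replicate 2 from -0.03 to 0.02. The calls followed length too, with 345 rises and 106 falls in the shortest group and 150 rises and 457 falls in the longest. With a smooth trend on length removed from each library, 2581 of the 12879 genes with a length changed (1386 up and 1195 down), and 1824 of the 2049 calls of the first fit that could be tested again kept their direction and call. What made the trend was not tested. Values with it removed are given below for some of the groups that depend on it, not for all.

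**Figure D2:**
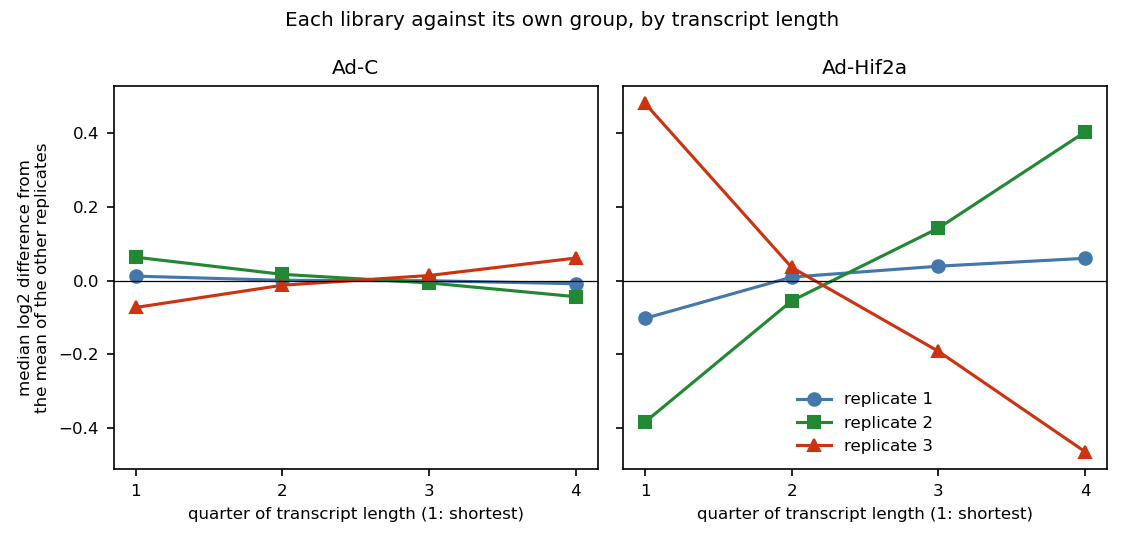
Median log2 difference of each library from the mean of the other replicates of its group (vertical) in 4 equal groups of genes by transcript length, from shortest to longest (horizontal). The Ad-C lines stay within -0.07 and 0.06, while Ad-Hif2a replicate 3 falls from 0.48 to -0.46 and replicate 2 climbs from -0.38 to 0.40. The deviations of a group cancel in each gene, so the line of replicate 2 in part mirrors that of replicate 3.

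**Figure D3:**
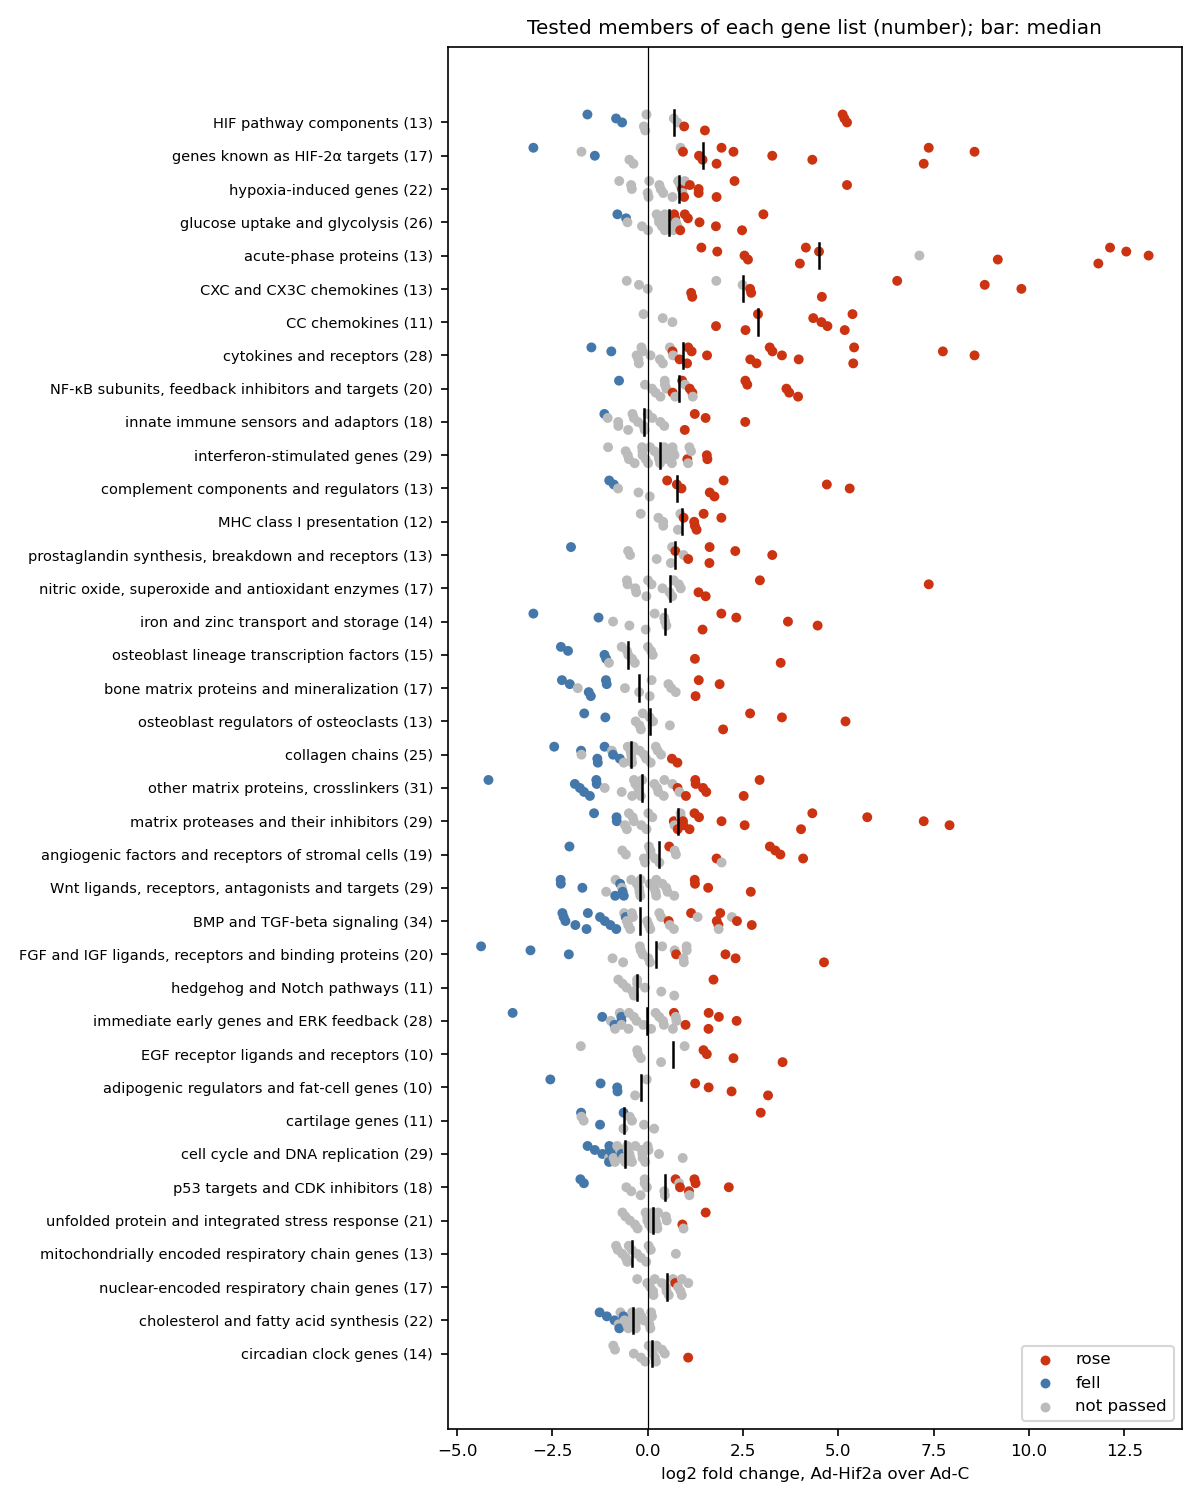
Log2 fold change of Ad-Hif2a over Ad-C (horizontal) for every tested member of the gene lists (vertical, one row a list), each point a gene coloured by whether it rose, fell or did not pass, with a bar at the median of the list. The acute-phase list has the highest median, 4.49, and the chemokine lists follow at 2.89 and 2.49.

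The transgene itself was checked first. Epas1 was at 47.1, 41.8 and 48.7 CPM with Ad-C and 1994, 2179 and 822 CPM with Ad-Hif2a. All 3 Ad-Hif2a libraries lay above all Ad-C libraries, replicate 3 at less than the others, and Epas1 rose by 5.16 on the log2 scale (SE 0.45, adjusted p = 0.000656). Reads from the vector insert and from the chromosomal gene cannot be told apart in these counts. Hif1a, the related α subunit, was at 193, 190.1 and 186 CPM with Ad-C and 574, 584 and 447 CPM with Ad-Hif2a. It too was higher in every Ad-Hif2a library and rose by 1.5 on the log2 scale (SE 0.25, adjusted p = 0.00846), a call lost on omitting Ad-C replicate 1, 2 or 3 or Ad-Hif2a replicate 1 (adjusted p 0.051 to 0.0679). With Ad-Hif1a, Epas1 was at 407, 486 and 678 CPM and Hif1a at 1239, 1928 and 2322 CPM.

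Among the partners and regulators of HIF-α, 13 of 14 listed genes were tested, 5 rose and 3 fell, beside 15.6% changed among all genes, with a median log2 fold change of 0.68 (0.15 on omitting Ad-Hif2a replicate 3). Egln3, a hydroxylase gene that HIF induces, was at 0.607, 0.504 and 0.534 CPM with Ad-C and 25.2, 18 and 19.5 CPM with Ad-Hif2a. No Ad-Hif2a library came near the controls, and Egln3 rose by 5.22 on the log2 scale (SE 0.21, adjusted p = 4.94e-05). Egln1 and Egln2, the other hydroxylase genes, did not pass, with a log2 fold change of -0.03 (SE 0.20, adjusted p = 0.913) and a log2 fold change of 0.78 (SE 0.42, adjusted p = 0.227). The binding partner Arnt was at 75.4, 71.6 and 75.8 CPM with Ad-C and 73.7, 80.7 and 54.1 CPM with Ad-Hif2a, and its values overlapped between the groups. Its paralogue Arnt2, at 58.6, 53.4 and 56.5 CPM with Ad-C and 18.1, 22.3 and 16.2 CPM with Ad-Hif2a, fell by 1.58 on the log2 scale (SE 0.18, adjusted p = 0.00186), with every Ad-Hif2a library below every control. The number of these genes that rose was 2, 3 and 3 on omitting Ad-C replicate 1, 2 and 3, in that order, and 2 on omitting Ad-Hif2a replicate 1, and 1 fell in each of those fits.

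Genes known as HIF-2α targets in other tissues include proteases and iron transporters. Of 17 tested, 11 rose and 2 fell, with a median log2 fold change of 1.44. Mmp3, which encodes stromelysin-1, was at 20.1, 18.7 and 24.7 CPM with Ad-C and 3573, 2589 and 3468 CPM with Ad-Hif2a. The groups lay far apart, and Mmp3 rose by 7.24 on the log2 scale (SE 0.27, adjusted p = 3.8e-05). Nos2, the inducible nitric oxide synthase, was at 0.331, 0.336 and 0.267 CPM with Ad-C and 96.1, 45.3 and 27.2 CPM with Ad-Hif2a, highest in replicate 1 and lowest in replicate 3 of Ad-Hif2a, and rose by 7.37 on the log2 scale (SE 0.57, adjusted p = 0.000409). Slc11a2, the iron importer DMT1, was at 25.0, 28.8 and 27.6 CPM with Ad-C and 66.8, 79.3 and 74.4 CPM with Ad-Hif2a and rose by 1.44 on the log2 scale (SE 0.13, adjusted p = 0.000787), without overlap. Cybrd1, the duodenal iron reductase and a gut target of HIF-2α, moved the other way, was at 29.8, 29.4 and 32.7 CPM with Ad-C and 3.36, 5.31 and 2.98 CPM with Ad-Hif2a and fell by 3.00 on the log2 scale (SE 0.23, adjusted p = 0.000402). The collagen gene Col10a1 did not pass, with a log2 fold change of -1.74 (SE 0.57, adjusted p = 0.0806).

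**Figure D4:**
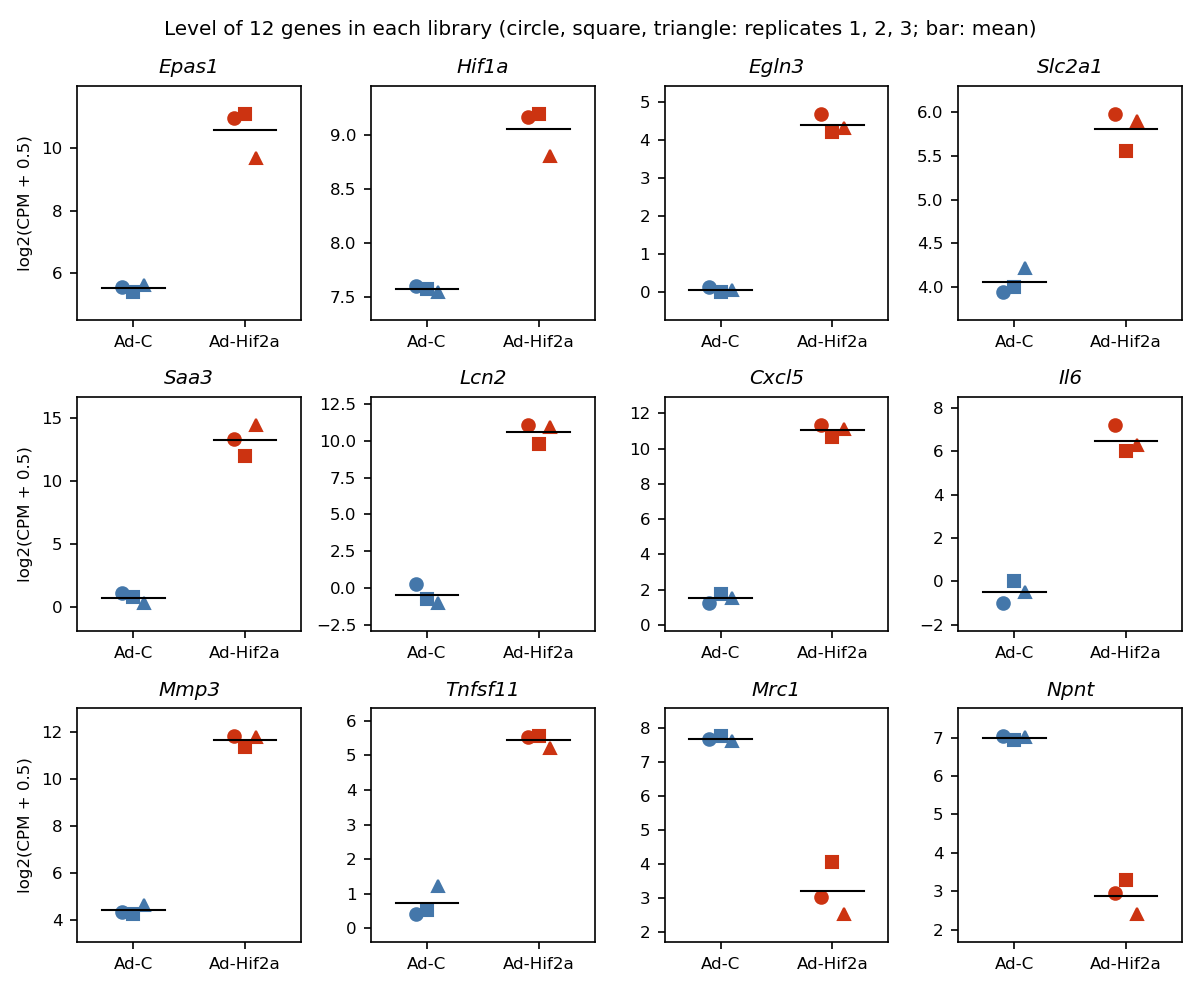
Level of 12 genes on a log2 scale of CPM plus 0.5 (vertical, a separate range for each gene) in the Ad-C (blue) and Ad-Hif2a (red) libraries, with circles, squares and triangles for replicates 1, 2 and 3 and a bar at the mean. In each of the 12 genes the 3 red points lie on one side of the 3 blue points, above for 10 genes and below for Mrc1 and Npnt.

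Of 22 hypoxia-induced genes tested, 8 rose and none fell, with a median log2 fold change of 0.82 (0.49 with the length trend removed). Beside Egln3 these were Car12, Ero1a, P4ha2, Plod2, Ddit4, Vegfa and Fam162a. P4ha2, a collagen prolyl hydroxylase, was at 53.6, 53.3 and 55.2 CPM with Ad-C and 140.0, 112 and 159 CPM with Ad-Hif2a and rose by 1.33 on the log2 scale (SE 0.18, adjusted p = 0.00378), without overlap. Vegfa, the endothelial growth factor, was at 22.4, 25.9 and 25.9 CPM with Ad-C and 118, 78.9 and 63.4 CPM with Ad-Hif2a. It was highest in Ad-Hif2a replicate 1 and rose by 1.80 on the log2 scale (SE 0.28, adjusted p = 0.00686), a call lost on omitting Ad-C replicate 1 (adjusted p 0.0648). Car9, the carbonic anhydrase often used as a marker of hypoxia, was at 0.441, 1.12 and 1.12 CPM with Ad-C and 0.412, 0.628 and 0.509 CPM with Ad-Hif2a, and the groups overlapped. Bnip3, a receptor for mitophagy, and Ndrg1 did not pass, with log2 fold changes of 0.41 and 0.04. Rises in the list numbered 2 on omitting Ad-C replicate 1, 4 on omitting Ad-C replicate 3 and 5 on omitting Ad-Hif2a replicate 1.

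In the glycolysis list of 26 genes, 9 rose and 2 fell, with a median log2 fold change of 0.55 (0.28 on omitting Ad-Hif2a replicate 3). Slc2a1, the glucose transporter GLUT1, was at 14.9, 15.5 and 18.2 CPM with Ad-C and 62.5, 46.5 and 59.5 CPM with Ad-Hif2a. Every Ad-Hif2a library was above the controls, and Slc2a1 rose by 1.79 on the log2 scale (SE 0.17, adjusted p = 0.000947). Slc16a1, a monocarboxylate transporter, was at 21.2, 20.1 and 23.3 CPM with Ad-C and 200.5, 196 and 133 CPM with Ad-Hif2a and rose by 3.03 on the log2 scale (SE 0.23, adjusted p = 0.000388), lowest in replicate 3 but without overlap. Among the enzymes, Hk2, Gpi1, Pfkl, Gapdh, Pkm and Ldha rose by 0.69 to 1.36 on the log2 scale, and each of these calls was lost in 3 or more fits that left out a library (highest adjusted p 0.115 to 0.221). Pgk1, Aldoa, Eno1 and Tpi1 did not pass, with log2 fold changes of 0.45 to 0.74, although their Ad-Hif2a libraries all lay above the controls. Pdk1, which holds pyruvate from the mitochondria, was at 15.3, 20.8 and 18 CPM with Ad-C and 11.0, 13.1 and 12.3 CPM with Ad-Hif2a and fell by 0.57 on the log2 scale (SE 0.16, adjusted p = 0.0482), a call lost on omitting Ad-C replicate 1, 2 or 3, Ad-Hif1a replicate 1 or 2 or Ad-Hif2a replicate 1 or 2 (adjusted p 0.0765 to 0.186). Pfkfb4, which fell as well, was lost in those same fits, leaving 0 falls. Rises in the list numbered 2, 3 and 2 on omitting Ad-C replicate 1, 2 and 3, in that order, and 4 on omitting Ad-Hif1a replicate 2 or Ad-Hif2a replicate 1, and with the length trend removed 9 rose and 1 fell.

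Promoter sequence was read for genes with an entry in the RefSeq table of build GRCm38.p6, as the 250 bases before the start, which covered 11104 of the 14413 genes tested. Entries on a single chromosome were left out, and only the first entry of each gene symbol was kept. The core of the hypoxia response element, ACGTG or GCGTG on either strand, was in 55.3% of these promoters, in 46.7% of the 861 of genes that rose and in 48% of the 833 of genes that fell. Among the risen genes, 5 of 7 hypoxia-list promoters, 7 of 9 of the glycolysis list and 5 of 6 of the CXC chemokine list held it. It was in 2 of 6 of the HIF-2α target list, 4 of 13 of the cytokine list, 1 of 3 of the CC chemokine list and 0 of 10 of the acute-phase list. The promoters of Egln3 (chr12:54203875-54204124, minus strand) and Slc2a1 (chr4:119108495-119108744, plus strand) are shown as those of a risen hydroxylase and a risen transporter gene that hold it, with the core in capitals.
Egln3: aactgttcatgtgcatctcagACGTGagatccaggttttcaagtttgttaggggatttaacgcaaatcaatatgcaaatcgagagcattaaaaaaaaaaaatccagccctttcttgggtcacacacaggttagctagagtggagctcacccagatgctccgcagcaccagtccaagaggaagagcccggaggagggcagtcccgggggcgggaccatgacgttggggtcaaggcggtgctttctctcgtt
Slc2a1: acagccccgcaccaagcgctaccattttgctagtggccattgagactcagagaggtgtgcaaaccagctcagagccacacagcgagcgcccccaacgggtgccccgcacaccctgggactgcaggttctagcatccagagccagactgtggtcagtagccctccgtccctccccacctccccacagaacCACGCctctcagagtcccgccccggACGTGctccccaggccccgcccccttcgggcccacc
The core occurs in 1 place in Egln3 and in 2 places in Slc2a1. The letters were chosen with the results known, and a match is a description of the sequence, not a bound site.

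The acute-phase list had the highest median of the lists other than cell markers. Its genes encode plasma and mucosal proteins that the liver and stromal cells secrete in inflammation. Of 13 tested, 12 rose and none fell, and the median log2 fold change was 4.49 (4.15 with Saa2 and Orm1, which had no count in any Ad-C library, set at 3 counts per library). Saa3, a serum amyloid A, was at 1.65, 1.23 and 0.748 CPM with Ad-C and 10123, 4098 and 21828 CPM with Ad-Hif2a. It was highest in replicate 3 and lowest in replicate 2 of Ad-Hif2a, both far above the controls, and it rose by 13.13 on the log2 scale (SE 0.89, adjusted p = 0.00025). Lcn2, which encodes the siderophore-binding protein lipocalin-2, was at 0.717, 0.112 and 0 CPM with Ad-C and 2087, 891 and 1930.0 CPM with Ad-Hif2a and rose by 12.55 on the log2 scale (SE 0.76, adjusted p = 0.000177), again without overlap. Hp, which encodes haptoglobin, was at 0.221, 0.112 and 0.160 CPM with Ad-C and 763, 465 and 1097 CPM with Ad-Hif2a and rose by 12.12 on the log2 scale (SE 0.53, adjusted p = 7.22e-05). The Ad-C levels of Lcn2 and Hp are at or near the limit of detection, so their folds are less certain than their Ad-Hif2a levels. Genes this low or lower with Ad-C, here or in other lists, could be called as risen but hardly as fallen.

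Saa2 was at 26.5, 9.59 and 48.9 CPM with Ad-Hif2a, at least 172-fold higher than 3 counts per library in Ad-C, where it was at 0. Saa1 and Saa2 are near-identical, and reads may be split between them. Cp, which encodes the iron oxidase ceruloplasmin, was at 32.5, 34.3 and 38 CPM with Ad-C and 227, 215 and 169 CPM with Ad-Hif2a and rose by 2.54 on the log2 scale (SE 0.17, adjusted p = 0.000244). Serpina3g, Serpina3h and Serpina3n, protease inhibitor genes of one cluster, rose by 4.15, 5.11 and 1.82 on the log2 scale. Ptx3, which encodes a pentraxin, was already at 84.0, 84.0 and 87.7 CPM with Ad-C and 242, 229 and 207 CPM with Ad-Hif2a and rose by 1.41 on the log2 scale (SE 0.14, adjusted p = 0.000995). Leaving out 1 library at a time left 11 of the 12 calls in place, the exception being Hpx, lost on omitting Ad-C replicate 1 (adjusted p 0.0526).

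Of 10 promoters of risen acute-phase genes in the table, 7 held TTGCNNAA on either strand, the core of a C/EBP site, against 7.62% of all promoters and 12.2% of those of risen genes. Among the other lists searched, it was in 3 of 6 promoters of risen HIF-2α targets, 2 of 13 of cytokines, 1 of 6 of CXC chemokines, 1 of 9 of glycolysis and none of the 3 of CC chemokines or the 7 of the hypoxia list. These letters too were chosen with the results known, and whether C/EBP factors act at the matches was not tested. The promoters of Saa3 (chr7:46715677-46715926, minus strand) and Lcn2 (chr2:32387740-32387989, minus strand) are shown, with the C/EBP core in capitals.
Saa3: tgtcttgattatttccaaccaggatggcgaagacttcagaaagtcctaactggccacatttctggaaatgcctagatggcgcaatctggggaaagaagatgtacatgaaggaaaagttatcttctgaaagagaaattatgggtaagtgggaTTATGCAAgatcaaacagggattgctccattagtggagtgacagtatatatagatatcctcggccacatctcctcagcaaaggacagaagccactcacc
Lcn2: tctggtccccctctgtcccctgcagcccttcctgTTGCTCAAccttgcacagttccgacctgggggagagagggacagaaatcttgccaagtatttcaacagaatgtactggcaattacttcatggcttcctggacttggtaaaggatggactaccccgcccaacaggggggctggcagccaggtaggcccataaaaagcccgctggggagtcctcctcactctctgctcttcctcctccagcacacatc
Among the genes of the C/EBP factors, Cebpb was at 22.8, 17.6 and 21.7 CPM with Ad-C and 172, 119.8 and 278 CPM with Ad-Hif2a and rose by 3.15 on the log2 scale (SE 0.29, adjusted p = 0.00082), Cebpd rose by 2.2 on the log2 scale (SE 0.15, adjusted p = 0.000244), and Cebpa, at 14.7, 13.2 and 13.7 CPM with Ad-C and 6.84, 8.05 and 9.02 CPM with Ad-Hif2a, fell by 0.80 on the log2 scale (SE 0.18, adjusted p = 0.024), a call lost on omitting Ad-C replicate 1, 2 or 3, Ad-Hif1a replicate 2 or Ad-Hif2a replicate 1 or 2 (adjusted p 0.0569 to 0.164).

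The CXC chemokine list also held Cx3cl1 and the decoy receptor gene Ackr3. Of 13 tested, 8 rose and none fell (1 fell on omitting Ad-Hif2a replicate 1), with a median log2 fold change of 2.49. Cxcl5, a neutrophil attractant, was at 1.88, 2.91 and 2.40 CPM with Ad-C and 2554, 1625 and 2253 CPM with Ad-Hif2a. No Ad-Hif2a library came near the controls, and Cxcl5 rose by 9.80 on the log2 scale (SE 0.34, adjusted p = 3.8e-05). Cxcl1, of the same subfamily, was at 1.27, 1.51 and 0.962 CPM with Ad-C and 882, 439 and 452 CPM with Ad-Hif2a and rose by 8.84 on the log2 scale (SE 0.36, adjusted p = 5.92e-05), with replicate 1 the highest. Cxcl2 and Cxcl3 rose by 4.57 and 6.54 on the log2 scale. Cxcl12, which holds blood stem cells in the marrow, was already at 174, 175 and 165 CPM with Ad-C and 1144, 1246 and 919 CPM with Ad-Hif2a and rose by 2.68 on the log2 scale (SE 0.20, adjusted p = 0.000334). Cxcl14 rose by 2.71 on the log2 scale (SE 0.15, adjusted p = 0.000157). The interferon-induced Cxcl9 and Cxcl10 did not pass, and Cxcl10 stood at 40.0, 44.9 and 32.6 CPM with Ad-C and 95.0, 15.6 and 15.3 CPM with Ad-Hif2a, where only replicate 1 of Ad-Hif2a was above the controls.

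The CC chemokines attract monocytes and other leukocytes. Of 11 tested, 8 rose and none fell, with a median of 2.89 on the log2 scale (2.15 with the length trend removed). Ccl2 was at 35.2, 38.2 and 35.4 CPM with Ad-C and 1069, 695 and 485 CPM with Ad-Hif2a. No Ad-Hif2a library came near the controls, and Ccl2 rose by 4.34 on the log2 scale (SE 0.33, adjusted p = 0.000396). Ccl7 was at 12.1, 14.3 and 11.2 CPM with Ad-C and 394, 252 and 343 CPM with Ad-Hif2a and rose by 4.71 on the log2 scale (SE 0.24, adjusted p = 0.000125). Ccl8, Ccl11, Ccl20, Ccl5 and Ccl3 rose by 5.37, 5.17, 4.55, 2.89 and 2.56. Ccl9 was high in both groups, at 57.2, 68.9 and 56.7 CPM with Ad-C and 57.6, 48.1 and 63.1 CPM with Ad-Hif2a, and the groups overlapped.

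Of 28 cytokine and receptor genes tested, 16 rose and 2 fell (9 rises on omitting Ad-C replicate 1, and 1 fall without any one Ad-C library, Ad-Hif1a replicate 2, Ad-Hif2a replicate 1, or with the length trend removed). Il6 was at 0, 0.504 and 0.214 CPM with Ad-C and 147, 63.9 and 76.9 CPM with Ad-Hif2a. It was near the limit of detection with Ad-C and highest in replicate 1 with Ad-Hif2a, and it rose by 8.57 on the log2 scale (SE 0.71, adjusted p = 0.000557). Lif, of the same family, was at 2.59, 2.58 and 2.56 CPM with Ad-C and 45.4, 27.2 and 18.9 CPM with Ad-Hif2a and rose by 3.52 on the log2 scale (SE 0.34, adjusted p = 0.00104), without overlap. The shared receptor chain Il6st did not pass, with a log2 fold change of 0.32 (SE 0.19, adjusted p = 0.272). Receptors of type 2 cytokines were among the strongest rises. Il13ra2, a decoy receptor, was at 0.496, 0.336 and 0.267 CPM with Ad-C and 93.0, 56.1 and 92.1 CPM with Ad-Hif2a and rose by 7.74 on the log2 scale (SE 0.31, adjusted p = 5.92e-05), and Il4ra, at 50.7, 47.9 and 50.1 CPM with Ad-C and 334, 352 and 387 CPM with Ad-Hif2a, rose by 2.85 on the log2 scale (SE 0.16, adjusted p = 0.000162). Il1rl1, the receptor of interleukin-33, was at 15.4, 22.1 and 19 CPM with Ad-C and 199, 163 and 156 CPM with Ad-Hif2a and rose by 3.20 on the log2 scale (SE 0.20, adjusted p = 0.000177), and its ligand Il33 rose by 3.27 on the log2 scale (SE 0.40, adjusted p = 0.00251). Il18 fell by 1.48 on the log2 scale (SE 0.22, adjusted p = 0.00497). Tnf was low, at 5.24, 6.44 and 6.94 CPM with Ad-C and 10.8, 13.4 and 13.8 CPM with Ad-Hif2a, and rose by 1.03 on the log2 scale (SE 0.16, adjusted p = 0.00635), a call lost on omitting Ad-C replicate 1 (adjusted p 0.0674).

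NF-κB is the factor through which many inflammatory signals act, and its own inhibitors are among its targets. Of 20 genes of the pathway, 9 rose and 1 fell (5 rises on omitting Ad-C replicate 1 and 15 on omitting Ad-Hif2a replicate 3). The fall was of Rel, which was lost on omitting Ad-C replicate 1, 2 or 3, Ad-Hif1a replicate 1 or 2 or Ad-Hif2a replicate 1 (adjusted p 0.053 to 0.224). The subunit genes Nfkb1 and Rela did not pass, with a log2 fold change of 0.49 (SE 0.26, adjusted p = 0.227) and a log2 fold change of -0.07 (SE 0.15, adjusted p = 0.734). Among the feedback genes, Nfkbiz was at 7.06, 8.12 and 8.17 CPM with Ad-C and 134, 97.2 and 76.0 CPM with Ad-Hif2a and rose by 3.71 on the log2 scale (SE 0.28, adjusted p = 0.000388). Zc3h12a, an RNase that degrades cytokine transcripts, was at 3.86, 3.70 and 3.21 CPM with Ad-C and 62.6, 60.2 and 43.7 CPM with Ad-Hif2a and rose by 3.94 on the log2 scale (SE 0.20, adjusted p = 0.000125). Bcl3 was at 6.95, 6.55 and 6.89 CPM with Ad-C and 41.8, 39.3 and 39.3 CPM with Ad-Hif2a, with the Ad-Hif2a libraries nearly alike, and rose by 2.56 on the log2 scale (SE 0.15, adjusted p = 0.000162). Sod2, which encodes the mitochondrial superoxide dismutase, was at 45.5, 45.1 and 47.5 CPM with Ad-C and 635, 443 and 657 CPM with Ad-Hif2a and rose by 3.64 on the log2 scale (SE 0.21, adjusted p = 0.000162). The adhesion genes Icam1 and Vcam1 did not pass, with log2 fold changes of 0.11 and 0.45.

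The promoter of Cxcl1 (chr5:90890995-90891244, plus strand) is shown for its 4 matches to the NF-κB core (GGG, then 5 bases of any kind, then CC). These matches overlap in pairs, in separate stretches. That of Mmp3 (chr9:7445572-7445821, plus strand) is shown for TGAGTCA, the AP-1 site. Both motifs were searched on either strand and are in capitals, and their letters were likewise chosen with the results known.
Cxcl1: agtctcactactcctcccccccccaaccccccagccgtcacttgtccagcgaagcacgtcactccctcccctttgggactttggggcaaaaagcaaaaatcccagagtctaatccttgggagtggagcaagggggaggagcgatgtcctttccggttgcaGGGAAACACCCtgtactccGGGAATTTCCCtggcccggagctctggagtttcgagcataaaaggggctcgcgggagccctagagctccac
Mmp3: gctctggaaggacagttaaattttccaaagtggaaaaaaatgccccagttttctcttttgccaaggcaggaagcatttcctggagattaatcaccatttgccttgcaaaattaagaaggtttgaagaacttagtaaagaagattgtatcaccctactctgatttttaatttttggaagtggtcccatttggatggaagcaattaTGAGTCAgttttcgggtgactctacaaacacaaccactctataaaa
The NF-κB letters were in 60.7% of all promoters, 59.9% of those of risen genes and 60.4% of those of fallen genes. The AP-1 letters were in 3.19%, 5.57% and 3.96%, and in 5 of 13 promoters of risen cytokine-list genes and 3 of 6 of risen HIF-2α targets. They were in none of the risen genes of the acute-phase (10 promoters), CXC chemokine (6), CC chemokine (3), hypoxia (7) or glycolysis (9) lists.

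Of 29 interferon-stimulated genes tested, 3 rose and none fell, a share of 10.3% beside 15.6% of all genes, with a median of 0.32. Isg15 was at 163, 165 and 129.8 CPM with Ad-C and 421, 135 and 469 CPM with Ad-Hif2a. Replicates 1 and 3 of Ad-Hif2a were above the controls and replicate 2 among them, and the gene did not pass, with a log2 fold change of 1.06 (SE 0.42, adjusted p = 0.131). In Ifit3, Usp18 and Mx2 replicates 1 and 3 were likewise the highest, and replicate 2 lay below all controls. Bst2, Irf7 and Ifi44 rose by 1.55, 1.56 and 1.04. The number that rose was 0 on omitting Ad-C replicate 1 or 3, 1 on omitting Ad-C replicate 2, Ad-Hif1a replicate 2 or Ad-Hif2a replicate 1, 9 on omitting Ad-Hif2a replicate 2 and 5 on omitting Ad-Hif2a replicate 3. With the length trend removed it was 6, and by DESeq2 6. Among the same genes 3 fell on omitting Ad-Hif2a replicate 1 and 1 on omitting Ad-Hif2a replicate 3 or with the length trend removed. Among 18 sensors and adaptors, 4 rose and 1 fell. Zbp1, a sensor of nucleic acids, was at 19, 20.2 and 18.1 CPM with Ad-C and 153, 69.7 and 125 CPM with Ad-Hif2a and rose by 2.56 on the log2 scale (SE 0.27, adjusted p = 0.00141), while Tlr4 did not pass, with a log2 fold change of -0.51 (SE 0.21, adjusted p = 0.137), and Tlr6 fell by 1.14 on the log2 scale (SE 0.16, adjusted p = 0.0039). Of the sensors, 2 fell on omitting Ad-Hif1a replicate 3, Ad-Hif2a replicate 1 or Ad-Hif2a replicate 3, and 2 rose on omitting Ad-C replicate 1, 2 or 3 or Ad-Hif2a replicate 1.

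Of 13 complement genes tested, 8 rose and 2 fell. C3, the central component, was at 16.4, 14.2 and 19.2 CPM with Ad-C and 750.2, 593 and 608 CPM with Ad-Hif2a. The Ad-Hif2a libraries were close together and C3 rose by 5.30 on the log2 scale (SE 0.20, adjusted p = 3.8e-05). Cfb, which forms the alternative convertase with C3, was at 7.39, 9.36 and 8.17 CPM with Ad-C and 288, 149 and 222 CPM with Ad-Hif2a and rose by 4.70 on the log2 scale (SE 0.28, adjusted p = 0.000177). Serping1, the C1 inhibitor, was already at 148, 141 and 151 CPM with Ad-C and 681, 508 and 565 CPM with Ad-Hif2a and rose by 1.99 on the log2 scale (SE 0.15, adjusted p = 0.000387). The receptors C3ar1 and C5ar1, which are mainly carried by myeloid cells, fell by 0.89 and 1.01 on the log2 scale. C3ar1 was lost on omitting Ad-C replicate 1, 2 or 3, Ad-Hif1a replicate 2 or Ad-Hif2a replicate 1 (adjusted p 0.0609 to 0.145) and C5ar1 on omitting Ad-C replicate 1, 2 or 3 or Ad-Hif2a replicate 1 (adjusted p 0.0729 to 0.114). Complement genes that rose numbered 4, 5 and 4 on omitting Ad-C replicate 1, 2 and 3, in that order, and 5 on omitting Ad-Hif2a replicate 1.

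Of 12 genes of MHC class I presentation, 6 rose and none fell. H2-D1 was at 433, 412 and 436 CPM with Ad-C and 1365, 1056 and 1131 CPM with Ad-Hif2a and rose by 1.47 on the log2 scale (SE 0.16, adjusted p = 0.00136). H2-K1 was at 301, 299 and 301 CPM with Ad-C and 1104, 762 and 1654 CPM with Ad-Hif2a, highest in replicate 3, and rose by 1.93 on the log2 scale (SE 0.30, adjusted p = 0.00655), a call lost on omitting Ad-C replicate 1 or 3 (adjusted p 0.0575 to 0.0606). The class I genes are near-identical copies, and reads may be split between them. On omitting Ad-C replicate 1 or 3 the list held 1 rise, and on omitting Ad-Hif2a replicate 1 it held 3.

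Prostaglandin E2 is made by cyclooxygenase-2 and a terminal synthase. Ptgs2, the cyclooxygenase-2 gene, was at 13.3, 10.9 and 10.3 CPM with Ad-C and 148, 113 and 73.9 CPM with Ad-Hif2a. Replicate 1 was the highest and replicate 3 the lowest of Ad-Hif2a, all above the controls, and Ptgs2 rose by 3.26 on the log2 scale (SE 0.33, adjusted p = 0.00127). Ptges, the synthase, was at 40.3, 37.8 and 40.4 CPM with Ad-C and 122, 87.0 and 161 CPM with Ad-Hif2a and rose by 1.62 on the log2 scale (SE 0.24, adjusted p = 0.00556), a call lost on omitting Ad-C replicate 1 or 3 (adjusted p 0.0511 to 0.0525). Hpgd, the enzyme that inactivates prostaglandins, was at 199, 223 and 197 CPM with Ad-C and 41.2, 65.6 and 48.4 CPM with Ad-Hif2a and fell by 2.01 on the log2 scale (SE 0.17, adjusted p = 0.000562). Of the 13 genes of the list, 6 rose and 1 fell. The rises numbered 2, 3 and 2 on omitting Ad-C replicate 1, 2 and 3, in that order, while 2 fell on omitting Ad-Hif2a replicate 3.

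Among 17 redox genes 4 rose and none fell (2 rises on omitting Ad-C replicate 1, 2 or 3, 7 by DESeq2, and 1 gene lower at an unadjusted p under 0.05). Sod3, which encodes the secreted superoxide dismutase, was at 72.0, 63.8 and 78.0 CPM with Ad-C and 707, 544 and 406 CPM with Ad-Hif2a and rose by 2.94 on the log2 scale (SE 0.23, adjusted p = 0.000414), beside Nos2, Slc7a11 and Nox4. Hmox1, which encodes heme oxygenase, did not pass, with a log2 fold change of 0.81 (SE 0.25, adjusted p = 0.0716). Of 14 genes of metal handling, 5 rose and 2 fell, the falls being of Cybrd1 and Tfrc. Fth1, the ferritin heavy chain, was at 3043, 2966 and 2980.1 CPM with Ad-C and 14252, 11353 and 19692 CPM with Ad-Hif2a. Every Ad-Hif2a library was above the controls and Fth1 rose by 2.32 on the log2 scale (SE 0.28, adjusted p = 0.00238), while the light chain Ftl1 did not pass, with a log2 fold change of 0.45 (SE 0.37, adjusted p = 0.401). Tfrc, the transferrin receptor, was at 41.9, 38 and 40.9 CPM with Ad-C and 11.2, 19.8 and 19.4 CPM with Ad-Hif2a and fell by 1.29 on the log2 scale (SE 0.22, adjusted p = 0.00912), a call lost on omitting Ad-C replicate 1 or 3 (adjusted p 0.0562 to 0.0647). The metallothionein genes Mt1 and Mt2 rose by 3.68 and 4.45, and Mt2 was at 24.9, 25.0 and 23.9 CPM with Ad-C and 418, 427 and 801 CPM with Ad-Hif2a. Slc39a14, a zinc and iron importer, was at 52.3, 52.2 and 56.8 CPM with Ad-C and 179, 294 and 155 CPM with Ad-Hif2a and rose by 1.93 on the log2 scale (SE 0.26, adjusted p = 0.0038).

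Among 15 osteoblast transcription factors tested, 2 rose and 4 fell. Runx2, the master factor of the lineage, was at 97.1, 83.7 and 97.2 CPM with Ad-C and 45.8, 56.0 and 29.8 CPM with Ad-Hif2a. No Ad-Hif2a library reached the lowest control, and Runx2 fell by 1.09 on the log2 scale (SE 0.26, adjusted p = 0.0317), a call lost on omitting Ad-C replicate 1, 2 or 3, Ad-Hif1a replicate 2 or Ad-Hif2a replicate 1 (adjusted p 0.0647 to 0.173). Sp7, which encodes osterix and acts after Runx2, was at 22.0, 19.8 and 25.6 CPM with Ad-C and 7.78, 9.71 and 13.6 CPM with Ad-Hif2a and fell by 1.13 on the log2 scale (SE 0.20, adjusted p = 0.0101), lost on omitting Ad-C replicate 1 or 3 (adjusted p 0.0703 to 0.0787). Mef2c was at 25.0, 25.8 and 26.2 CPM with Ad-C and 5.42, 7.71 and 5.09 CPM with Ad-Hif2a and fell by 2.09 on the log2 scale (SE 0.24, adjusted p = 0.00191). Snai2 was at 139, 142 and 136 CPM with Ad-C and 30.6, 35.5 and 20.7 CPM with Ad-Hif2a and fell by 2.28 on the log2 scale (SE 0.22, adjusted p = 0.000947). Twist2, an inhibitor of RUNX2, was low at 0.496, 0.616 and 0.641 CPM with Ad-C and 6.19, 4.63 and 9.61 CPM with Ad-Hif2a and rose by 3.49 on the log2 scale (SE 0.35, adjusted p = 0.0012), whereas Twist1 overlapped between the groups. Atf4, Msx1, Msx2 and Dlx5 did not pass, with log2 fold changes of 0.13, 0.09, -0.34 and -0.68. Omitting Ad-C replicate 1 left 1 rise and 2 falls, and omitting Ad-C replicate 3 left 2 of each. Runx1 was the other rise, lost on omitting Ad-C replicate 1 (adjusted p 0.06).

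Of 17 genes of bone matrix and mineral tested, 3 rose and 6 fell. Alpl, the alkaline phosphatase that frees phosphate for mineral, was at 55.6, 51.7 and 59.1 CPM with Ad-C and 27.8, 33.9 and 18.6 CPM with Ad-Hif2a. The groups did not overlap and Alpl fell by 1.08 on the log2 scale (SE 0.22, adjusted p = 0.0183), a call lost on omitting Ad-C replicate 1 or 3 or Ad-Hif2a replicate 1 (adjusted p 0.0753 to 0.106). Bglap, which encodes osteocalcin, was low at this stage, at 4.14, 4.87 and 5.98 CPM with Ad-C and 1.30, 0.457 and 2.26 CPM with Ad-Hif2a, and fell by 2.04 on the log2 scale (SE 0.42, adjusted p = 0.0182), lost on omitting Ad-C replicate 1, 2 or 3 or Ad-Hif2a replicate 1 (adjusted p 0.0611 to 0.0788). Bglap2, at 7.67, 6.61 and 6.36 CPM with Ad-C and 1.18, 1.09 and 3.78 CPM with Ad-Hif2a, did not pass, with a log2 fold change of -1.84 (SE 0.57, adjusted p = 0.0731), and its reads may be shared with Bglap, a near-identical copy. The osteocyte-stage genes Phex and Dmp1 fell by 1.55 and 2.25 on the log2 scale, from Ad-C means of 4.96 and 1.83 CPM. Phex was lost on omitting Ad-C replicate 1, 2 or 3 or Ad-Hif2a replicate 1 (adjusted p 0.0679 to 0.109) and Dmp1 on omitting Ad-C replicate 1, 2 or 3 or Ad-Hif2a replicate 2 (adjusted p 0.0673 to 0.112). Slc20a1, a phosphate importer, was at 80.8, 82.0 and 80.9 CPM with Ad-C and 301, 270.2 and 329.8 CPM with Ad-Hif2a and rose by 1.88 on the log2 scale (SE 0.14, adjusted p = 0.000387), and Enpp1, which makes the mineral inhibitor pyrophosphate, was at 19.4, 21.1 and 21.6 CPM with Ad-C and 49.0, 51.3 and 47.4 CPM with Ad-Hif2a and rose by 1.25 on the log2 scale (SE 0.15, adjusted p = 0.00236). Spp1, Sparc and Ibsp did not pass, with log2 fold changes of 0.61, -0.23 and 0.73. The number that fell was 0, 1 and 0 on omitting Ad-C replicate 1, 2 and 3 and 3 on omitting Ad-Hif2a replicate 1, and 8 with the length trend removed.

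Among the signals by which osteoblasts direct osteoclasts, Tnfsf11 changed most. RANKL, its product, drives osteoclast formation, and Tnfrsf11b encodes its decoy receptor osteoprotegerin. Tnfsf11 was at 0.827, 0.952 and 1.82 CPM with Ad-C and 45.7, 46.4 and 36.7 CPM with Ad-Hif2a. The 3 Ad-Hif2a libraries lay close together, far above the highest control, and Tnfsf11 rose by 5.19 on the log2 scale (SE 0.31, adjusted p = 0.000177). Tnfrsf11b was at 66.2, 61.5 and 58.8 CPM with Ad-C and 57.7, 67.8 and 26.8 CPM with Ad-Hif2a and did not pass, with a log2 fold change of -0.31 (SE 0.39, adjusted p = 0.577), so the transcript of the ligand changed and that of the decoy was not detectably different. Vdr, the vitamin D receptor, was at 8.55, 8.29 and 9.08 CPM with Ad-C and 41.5, 36.1 and 24.8 CPM with Ad-Hif2a and rose by 1.98 on the log2 scale (SE 0.24, adjusted p = 0.00238). Sema3a, which restrains osteoclasts, was at 162, 173 and 167 CPM with Ad-C and 51.9, 65.2 and 42.1 CPM with Ad-Hif2a and fell by 1.66 on the log2 scale (SE 0.22, adjusted p = 0.00311). Csf1 was at 365, 344 and 381 CPM with Ad-C and 366, 369 and 262 CPM with Ad-Hif2a, and the groups overlapped. In all, 4 of 13 rose and 2 fell, the second being Lgr4, lost on omitting Ad-C replicate 1, 2 or 3, Ad-Hif1a replicate 2 or Ad-Hif2a replicate 1 or 2 (adjusted p 0.0697 to 0.187).

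**Figure D5:**
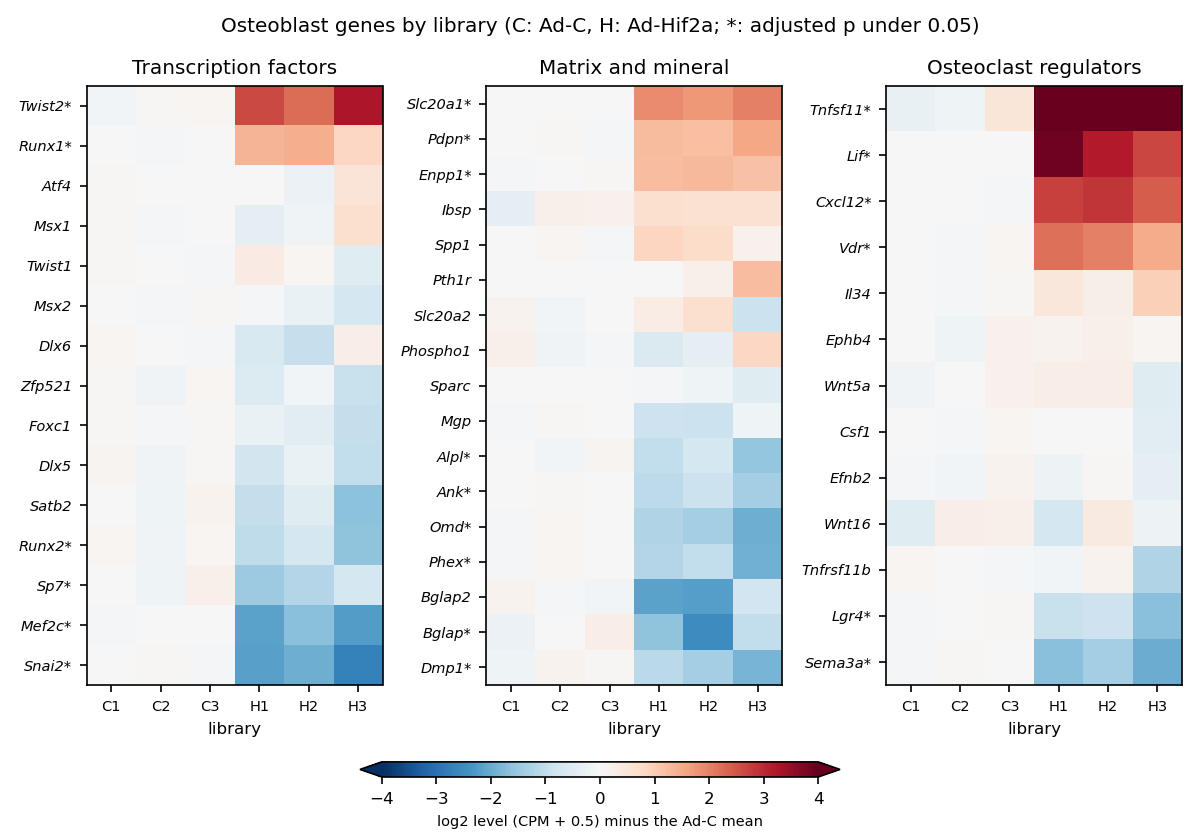
Level of each tested gene in the 6 libraries as log2 of CPM plus 0.5 minus the Ad-C mean (colour, cut at -4 and 4), for the osteoblast transcription factors (15 genes), bone matrix and mineral genes (17) and osteoclast regulators (13), sorted by fold change, with a star where the adjusted p was under 0.05. Tnfsf11 stands off the scale in all 3 Ad-Hif2a libraries (H1 to H3), and Snai2 and Mef2c are below the controls in all 3.

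Most collagen chains were lower with Ad-Hif2a, few of them past the test. Of 25 tested, 7 fell and 2 rose, with a median of -0.43, which was -0.05 with the length trend removed. With that trend removed 5 fell and 4 rose. Col1a1, the main chain of bone matrix, was at 41160.4, 37751 and 42579 CPM with Ad-C and 27971, 32940.2 and 33095 CPM with Ad-Hif2a. All Ad-Hif2a libraries were below the controls, but the gene did not pass, with a log2 fold change of -0.37 (SE 0.19, adjusted p = 0.204), and with the length trend removed its log2 fold change was -0.01. Col6a3 was at 1575, 1542 and 1769 CPM with Ad-C and 276, 448 and 196 CPM with Ad-Hif2a and fell by 2.45 on the log2 scale (SE 0.30, adjusted p = 0.00247), and still by 1.94 with the trend removed. Col2a1, a cartilage collagen, was at 119, 109 and 129 CPM with Ad-C and 33.4, 43.0 and 30.5 CPM with Ad-Hif2a and fell by 1.75 on the log2 scale (SE 0.18, adjusted p = 0.00117). The number that fell was 2, 4 and 2 on omitting Ad-C replicate 1, 2 and 3, 4 on omitting Ad-Hif1a replicate 2 and 3 on omitting Ad-Hif2a replicate 1. The number that rose was 4 on omitting Ad-Hif2a replicate 3, 2 on omitting Ad-Hif1a replicate 3 and 0 without any other single library.

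Of 31 other matrix genes tested, 8 rose and 7 fell, and the median of -0.14 became 0.15 with the length trend removed. Ogn, Fmod, Prelp and Aspn, small leucine-rich proteoglycans that coat collagen fibrils, fell, Aspn not on omitting Ad-C replicate 1 (adjusted p 0.0519). Ogn was at 805, 849 and 777 CPM with Ad-C and 253, 242 and 153 CPM with Ad-Hif2a and fell by 1.91 on the log2 scale (SE 0.26, adjusted p = 0.00359). Fmod was at 2838, 2644 and 3059 CPM with Ad-C and 1167, 1301 and 901 CPM with Ad-Hif2a and fell by 1.35 on the log2 scale (SE 0.19, adjusted p = 0.00419). Bgn, of the same family, was at 2305, 2090.3 and 2388 CPM with Ad-C and 6299, 5046 and 4824 CPM with Ad-Hif2a and rose by 1.25 on the log2 scale (SE 0.17, adjusted p = 0.00337), a call lost on omitting Ad-C replicate 1 (adjusted p 0.0502). Npnt, an integrin ligand, was at 131, 123 and 130.1 CPM with Ad-C and 7.31, 9.31 and 4.80 CPM with Ad-Hif2a. Every Ad-Hif2a library was far below the controls, and Npnt fell by 4.18 on the log2 scale (SE 0.26, adjusted p = 0.000177). Fbln1 was at 71.4, 70.1 and 76.6 CPM with Ad-C and 561, 521 and 584 CPM with Ad-Hif2a and rose by 2.93 on the log2 scale (SE 0.16, adjusted p = 0.000138). Has2, a hyaluronan synthase, was at 10.3, 12.6 and 9.46 CPM with Ad-C and 81.3, 76.5 and 30.4 CPM with Ad-Hif2a and rose by 2.52 on the log2 scale (SE 0.41, adjusted p = 0.00764), a call lost on omitting Ad-C replicate 1 or 3 (adjusted p 0.0539 to 0.0637). Fn1, which encodes fibronectin, was at 26654, 23470.3 and 28825 CPM with Ad-C and 13040.5, 18812 and 5191 CPM with Ad-Hif2a, lowest in replicate 3, and did not pass, with a log2 fold change of -1.13 (SE 0.49, adjusted p = 0.155). The number that rose was 1, 3 and 3 on omitting Ad-C replicate 1, 2 and 3, 5 on omitting Ad-Hif1a replicate 2 or Ad-Hif2a replicate 2 and 4 on omitting Ad-Hif2a replicate 1.

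Several proteases that cut matrix rose beside Mmp3. Of 29 proteases and inhibitors tested, 14 rose and 3 fell (8 rises on omitting Ad-C replicate 1 or 3, and 0 falls on omitting Ad-C replicate 1, Ad-C replicate 3 or Ad-Hif2a replicate 1, 1 on omitting Ad-C replicate 2 or Ad-Hif1a replicate 2 and 6 on omitting Ad-Hif2a replicate 3). Mmp13, the collagenase of bone, was already at 1796, 1822 and 1766 CPM with Ad-C and 3794, 3727 and 2747 CPM with Ad-Hif2a and rose by 0.92 on the log2 scale (SE 0.19, adjusted p = 0.0164), a call lost on omitting Ad-C replicate 1, 2 or 3, Ad-Hif1a replicate 2 or Ad-Hif2a replicate 1 or 2 (adjusted p 0.0508 to 0.129). Mmp8, another collagenase, was at 0.441, 0.952 and 0.641 CPM with Ad-C and 40.4, 31.6 and 38.3 CPM with Ad-Hif2a and rose by 5.76 on the log2 scale (SE 0.29, adjusted p = 0.000125). Mmp9 and Adamts4, the latter an aggrecanase, rose by 4.32 and 1.34. The inhibitor Timp1 was at 554, 577 and 542 CPM with Ad-C and 3129, 2135 and 4733 CPM with Ad-Hif2a and rose by 2.54 on the log2 scale (SE 0.31, adjusted p = 0.00238). Timp3 fell by 0.81 on the log2 scale (SE 0.20, adjusted p = 0.0356), a call lost on omitting Ad-C replicate 1, 2 or 3, Ad-Hif1a replicate 2 or Ad-Hif2a replicate 1 (adjusted p 0.0789 to 0.178), and Timp2 did not pass, with a log2 fold change of -0.49 (SE 0.15, adjusted p = 0.0632).

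Of 19 angiogenic factors and receptors 6 rose and 1 fell. Angptl4, a secreted inhibitor of lipoprotein lipase that HIF and PPAR factors induce, was at 11.4, 14.5 and 12.7 CPM with Ad-C and 241, 202 and 208 CPM with Ad-Hif2a. The libraries of each group were close together and Angptl4 rose by 4.07 on the log2 scale (SE 0.18, adjusted p = 7.22e-05). Pgf, placental growth factor, was at 0.772, 0.784 and 0.641 CPM with Ad-C and 9.55, 5.08 and 11.1 CPM with Ad-Hif2a and rose by 3.48 on the log2 scale (SE 0.32, adjusted p = 0.000796). Vegfc, a lymphatic growth factor, was at 1.88, 1.85 and 1.71 CPM with Ad-C and 19.1, 16.1 and 15.1 CPM with Ad-Hif2a and rose by 3.20 on the log2 scale (SE 0.20, adjusted p = 0.000177), and Apln rose by 3.34 on the log2 scale (SE 0.28, adjusted p = 0.000538). Angpt2 was at 58.2, 57.5 and 59.8 CPM with Ad-C and 16.9, 14.7 and 11.1 CPM with Ad-Hif2a and fell by 2.05 on the log2 scale (SE 0.18, adjusted p = 0.000574). On omitting Ad-Hif1a replicate 3 or Ad-Hif2a replicate 2 or 3, 2 fell.

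Several receptors and ligands that guide osteoblast growth fell. Fgfr2, a receptor of fibroblast growth factors, was at 324, 325 and 323 CPM with Ad-C and 75.5, 86.4 and 70.0 CPM with Ad-Hif2a. The groups lay well apart and Fgfr2 fell by 2.07 on the log2 scale (SE 0.16, adjusted p = 0.000409). Fgfr3 was at 16.9, 20.6 and 21.1 CPM with Ad-C and 2.12, 2.57 and 2.18 CPM with Ad-Hif2a and fell by 3.07 on the log2 scale (SE 0.23, adjusted p = 0.000334). In the FGF and IGF list as a whole, 4 of 20 rose and 3 fell (1, 2 and 1 rises on omitting Ad-C replicate 1, 2 and 3, and 7 rises and 5 falls on omitting Ad-Hif2a replicate 3). Bmp2 was at 24.5, 24.4 and 22.5 CPM with Ad-C and 5.36, 6.97 and 3.06 CPM with Ad-Hif2a and fell by 2.24 on the log2 scale (SE 0.29, adjusted p = 0.00311). Inhba, which encodes a chain of activin A, was at 165, 158 and 159 CPM with Ad-C and 728, 539 and 441 CPM with Ad-Hif2a and rose by 1.81 on the log2 scale (SE 0.22, adjusted p = 0.00229). Id1, a target of BMP signals, was at 22.3, 23.6 and 23.9 CPM with Ad-C and 5.83, 7.65 and 10.1 CPM with Ad-Hif2a and fell by 1.57 on the log2 scale (SE 0.29, adjusted p = 0.0118), a call lost on omitting Ad-C replicate 1, 2 or 3 (adjusted p 0.057 to 0.077). Of 34 BMP and TGF-β genes 7 rose and 11 fell, with 3, 5 and 3 falls on omitting Ad-C replicate 1, 2 and 3, 7 on omitting Ad-Hif1a replicate 2, and 5 on omitting Ad-Hif2a replicate 1. Rises numbered 4 on omitting Ad-C replicate 1 and 11 on omitting Ad-Hif2a replicate 3 or with the length trend removed.

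Of 29 Wnt genes 4 rose and 7 fell, with a median of -0.19 that became 0.08 with the length trend removed. With that trend removed 6 rose and 5 fell. Lgr5, a receptor of R-spondins, was at 136, 137 and 147 CPM with Ad-C and 18.7, 42.5 and 28.9 CPM with Ad-Hif2a and fell by 2.28 on the log2 scale (SE 0.25, adjusted p = 0.00167). Nkd1, a feedback inhibitor, was at 15.3, 12.2 and 13.5 CPM with Ad-C and 2.77, 2.74 and 2.91 CPM with Ad-Hif2a and fell by 2.28 on the log2 scale (SE 0.21, adjusted p = 0.00079), while Nkd2 rose by 1.24 on the log2 scale (SE 0.14, adjusted p = 0.00161). Sfrp2, which binds Wnt ligands, was at 281, 251 and 265 CPM with Ad-C and 81.8, 106 and 58.1 CPM with Ad-Hif2a and fell by 1.71 on the log2 scale (SE 0.25, adjusted p = 0.00492). Falls numbered 3 on omitting Ad-C replicate 1, 2 or 3, Ad-Hif1a replicate 2 or Ad-Hif2a replicate 1 and 4 on omitting Ad-Hif1a replicate 1, and 2 rose on omitting Ad-C replicate 1. In the hedgehog and Notch list 1 of 11 rose, Ptch1, at 8.49, 7.68 and 6.94 CPM with Ad-C and 29.9, 24.4 and 22.2 CPM with Ad-Hif2a, by 1.72 on the log2 scale (SE 0.22, adjusted p = 0.00282), none fell (1 lower at an unadjusted p under 0.05, 0 by DESeq2), and 2 rose on omitting Ad-Hif2a replicate 2.

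Immediate early genes and inhibitors of ERK signaling moved in both directions, with 6 of 28 rising and 5 falling. Ier3 was at 13.6, 13.8 and 17.6 CPM with Ad-C and 87.3, 70.4 and 68.7 CPM with Ad-Hif2a and rose by 2.33 on the log2 scale (SE 0.18, adjusted p = 0.000387), and Fosl1 and Junb, AP-1 subunit genes, rose by 1.87 and 1.59. Fos did not pass, with a log2 fold change of -0.86 (SE 0.63, adjusted p = 0.351). Dusp6, a phosphatase that ERK induces, was at 28, 29.7 and 29.0 CPM with Ad-C and 13.6, 17.0 and 17.0 CPM with Ad-Hif2a and fell by 0.87 on the log2 scale (SE 0.16, adjusted p = 0.0123), a call lost on omitting Ad-C replicate 1, 2 or 3 or Ad-Hif2a replicate 1 (adjusted p 0.0517 to 0.105). The number that fell was 0, 2 and 1 on omitting Ad-C replicate 1, 2 and 3, 3 on omitting Ad-Hif1a replicate 2 and 0 on omitting Ad-Hif2a replicate 1. Of 10 EGF-receptor ligands and receptors 4 rose, Hbegf, Areg, Ereg and Tgfa, and none fell (1 lower at an unadjusted p under 0.05, 1 by DESeq2 and 1 on omitting Ad-Hif2a replicate 2). The rises numbered 0 on omitting Ad-C replicate 1, 1 on omitting Ad-C replicate 2, Ad-C replicate 3 or Ad-Hif2a replicate 1, and 2 on omitting Ad-Hif1a replicate 2 or Ad-Hif2a replicate 2.

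Of 10 adipogenic genes 4 rose and 4 fell. Pparg, the master factor of fat cells, was at 6.95, 6.61 and 6.62 CPM with Ad-C and 1.53, 1.37 and 0.582 CPM with Ad-Hif2a and fell by 2.55 on the log2 scale (SE 0.32, adjusted p = 0.00247), while the rises were of Cebpb, Cebpd, Fabp4 and Plin2. Falls numbered 1, 2 and 1 on omitting Ad-C replicate 1, 2 and 3, and 2 on omitting Ad-Hif1a replicate 2, Ad-Hif2a replicate 1 or Ad-Hif2a replicate 2. The number that rose was 2 on omitting Ad-C replicate 1 or 3, Ad-Hif1a replicate 2 or Ad-Hif2a replicate 1. Of 11 cartilage genes 1 rose and 3 fell, and 1 fell on omitting Ad-C replicate 1, 2 or 3, Ad-Hif1a replicate 2 or Ad-Hif2a replicate 1. Prg4, which encodes lubricin, was at 24.3, 19.7 and 22.8 CPM with Ad-C and 212, 226 and 86.4 CPM with Ad-Hif2a and rose by 2.96 on the log2 scale (SE 0.45, adjusted p = 0.00601).

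Of 29 cell cycle genes tested, none rose (1 higher at an unadjusted p under 0.05 and 1 by DESeq2) and 8 fell (14 by DESeq2), with a median of -0.59. Ccnd1, which encodes cyclin D1, was at 1027, 976 and 1015 CPM with Ad-C and 362, 400.0 and 390.3 CPM with Ad-Hif2a. The Ad-Hif2a libraries were close together and Ccnd1 fell by 1.39 on the log2 scale (SE 0.16, adjusted p = 0.00191). Mki67, a marker of cycling cells, was at 169, 181 and 166 CPM with Ad-C and 44.7, 101 and 38.3 CPM with Ad-Hif2a, least reduced in replicate 2, and fell by 1.58 on the log2 scale (SE 0.31, adjusted p = 0.0163), a call lost on omitting Ad-C replicate 1 or 3 or Ad-Hif2a replicate 1 (adjusted p 0.0839 to 0.101). Of the replication machinery Mcm2, Mcm3, Mcm4, Mcm5 and Mcm7 did not pass, nor did Pcna, with a log2 fold change of -0.41 (SE 0.18, adjusted p = 0.156). The number that fell was 1, 4 and 1 on omitting Ad-C replicate 1, 2 and 3, 4 on omitting Ad-Hif1a replicate 2 and 1 on omitting Ad-Hif2a replicate 1, and 14 and 13 on omitting Ad-Hif2a replicate 2 and 3. Of 18 p53 targets and CDK inhibitors 6 rose and 2 fell (2 rises on omitting Ad-C replicate 1, 2 or 3 and 3 on omitting Ad-Hif2a replicate 1). Fas, the death receptor, was at 25.9, 25.6 and 25.8 CPM with Ad-C and 123, 105 and 109 CPM with Ad-Hif2a and rose by 2.13 on the log2 scale (SE 0.15, adjusted p = 0.00025). Sesn1 was at 39.3, 39.8 and 38.9 CPM with Ad-C and 12.3, 15.7 and 9.17 CPM with Ad-Hif2a and fell by 1.67 on the log2 scale (SE 0.23, adjusted p = 0.00418), and the other fall, of Cdkn1c, was lost on omitting Ad-C replicate 1, 2 or 3 or Ad-Hif2a replicate 1 or 2 (adjusted p 0.0502 to 0.072).

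The integrated stress list had 2 rises among 21 genes (0 without any one Ad-C library, Ad-Hif1a replicate 1 or 2 or Ad-Hif2a replicate 1, and 1 on omitting Ad-Hif2a replicate 2) and no fall (1 by DESeq2, 1 at an unadjusted p under 0.05 and 2 on omitting Ad-Hif2a replicate 3). Ddit3, which encodes CHOP, did not pass, with a log2 fold change of 0.94 (SE 0.30, adjusted p = 0.0754). Of the 13 mitochondrially encoded genes 0 passed by edgeR, 0 had an unadjusted p under 0.05 and 0 passed by DESeq2, though 2 fell on omitting Ad-Hif1a replicate 3. COX1 was at 15480.4, 13825 and 14834 CPM with Ad-C and 13576, 12464 and 4073 CPM with Ad-Hif2a, lowest in replicate 3. Of 17 nuclear genes of respiration 1 rose, Cycs (3 by DESeq2), a call lost on omitting Ad-C replicate 1, 2 or 3, Ad-Hif1a replicate 1 or 2 or Ad-Hif2a replicate 1 (adjusted p 0.0663 to 0.235), and 2 rose on omitting Ad-Hif1a replicate 3 or Ad-Hif2a replicate 2. Of 22 genes of cholesterol and fatty acid synthesis 5 fell and none rose, among them Elovl6, a fatty acid elongase gene, which was at 70.2, 71.7 and 66.2 CPM with Ad-C and 24.3, 37.9 and 26.0 CPM with Ad-Hif2a and fell by 1.26 on the log2 scale (SE 0.18, adjusted p = 0.00418). Those falls numbered 1 without any one Ad-C library or without Ad-Hif2a replicate 1, 3 on omitting Ad-Hif1a replicate 1, 2 on omitting Ad-Hif1a replicate 2 and 8 on omitting Ad-Hif2a replicate 2. Nr1d1 was the single clock gene of 14 that rose, by 1.06 on the log2 scale (SE 0.16, adjusted p = 0.00512), a call lost on omitting Ad-C replicate 1 (adjusted p 0.0614). None fell by edgeR, but 2 did by DESeq2, at an unadjusted p under 0.05, and on omitting Ad-Hif1a replicate 3 or Ad-Hif2a replicate 3, where 2 rose in the latter.

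Beyond the lists, the 15 largest rises, taken where the average log2 CPM was over 4, included Marco, a scavenger receptor of macrophages, Chil1, a chitinase-like secreted protein, and Pcsk5, a proprotein convertase. Marco was at 1.60, 1.51 and 1.01 CPM with Ad-C and 101, 53.6 and 151 CPM with Ad-Hif2a and rose by 6.17 on the log2 scale (SE 0.52, adjusted p = 0.000559). Chil1 was at 1.05, 1.90 and 1.82 CPM with Ad-C and 71.9, 48.1 and 94.0 CPM with Ad-Hif2a and rose by 5.45 on the log2 scale (SE 0.36, adjusted p = 0.000244). Pcsk5 was at 5.02, 4.59 and 4.86 CPM with Ad-C and 213, 216 and 126 CPM with Ad-Hif2a and rose by 5.25 on the log2 scale (SE 0.30, adjusted p = 0.000162), and all 3 lay apart from the controls in every library. The largest falls after Mrc1 were of Ndnf, a secreted neurotrophic factor, Npnt and Ccn3. Ndnf was at 1036, 938 and 975 CPM with Ad-C and 36.5, 75.6 and 40.5 CPM with Ad-Hif2a and fell by 4.34 on the log2 scale (SE 0.30, adjusted p = 0.000287). Ccn3, a matricellular protein, was at 389.9, 368 and 345 CPM with Ad-C and 22.7, 53.5 and 28.8 CPM with Ad-Hif2a and fell by 3.47 on the log2 scale (SE 0.33, adjusted p = 0.000865). Pgm5, Sned1, Abi3bp, Plxnc1 and Fat4 also stood among the 15. The calls of these 15 rises and 15 falls held on leaving out any 1 library, except Abi3bp (adjusted p 0.0511 to 0.0655 on omitting Ad-C replicate 1 or 3 or Ad-Hif2a replicate 1) and Fat4 (0.0501 to 0.145 on omitting Ad-C replicate 1, 2 or 3, Ad-Hif1a replicate 2 or Ad-Hif2a replicate 1).

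Markers of the cells in the dish were checked beside these results. Osteoblast markers summed to 67976 to 73520 CPM with Ad-C and 53079 to 62268 with Ad-Hif2a, led in every library by Col1a1 and Col1a2. Of 11 such markers 1 rose and 4 fell (0, 2 and 0 falls on omitting Ad-C replicate 1, 2 and 3, in that order, 1 fall on omitting Ad-Hif2a replicate 1, 0 rises without any one Ad-C library and 2 rises on omitting Ad-Hif2a replicate 3). Macrophage markers were present with Ad-C, at a sum of 1305 to 1379 CPM, and lower with Ad-Hif2a, at 469 to 658. Of 15 tested 8 fell and none rose, with a median of -1.35 (3 falls on omitting Ad-C replicate 1 and 5 on omitting Ad-C replicate 2, Ad-C replicate 3 or Ad-Hif2a replicate 1). Mrc1, the mannose receptor, was at 202, 214 and 197 CPM with Ad-C and 7.72, 16.1 and 5.31 CPM with Ad-Hif2a and fell by 4.48 on the log2 scale (SE 0.36, adjusted p = 0.000485). Csf1r was at 147, 156 and 149 CPM with Ad-C and 36.9, 53.2 and 41.9 CPM with Ad-Hif2a and fell by 1.79 on the log2 scale (SE 0.16, adjusted p = 0.000672). Adgre1, which encodes F4/80, was at 114, 124 and 113 CPM with Ad-C and 132, 131 and 83.7 CPM with Ad-Hif2a and did not pass, with a log2 fold change of -0.02 (SE 0.22, adjusted p = 0.945). Fewer macrophages and less RNA of these genes per macrophage cannot be told apart in bulk RNA, and their part in the falls of C3ar1, C5ar1 and Tlr6 or in the rise of Marco was not tested.

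Neutrophil markers summed to 0.11 to 0.48 CPM with Ad-C and 7.54 to 13.6 with Ad-Hif2a, of which Camp was at 0.0552, 0 and 0.160 CPM with Ad-C and 9.72, 5.94 and 9.17 CPM with Ad-Hif2a, and S100a8 at 0, 0.0560 and 0 CPM with Ad-C and 3.54, 1.48 and 1.60 CPM with Ad-Hif2a. Both rose, but both were at or near the limit of detection with Ad-C. They had enough counts to be tested only through libraries outside Ad-C, so a fall could not have been called. The other 7 neutrophil markers had too few counts to be tested. Lymphocyte and erythroid markers were too low to be tested. Endothelial markers summed to 11.3 to 13.2 CPM with Ad-C and 16.0 to 22.3 with Ad-Hif2a, and the vascular endothelial markers Pecam1 and Kdr were both under 5 CPM in every library. Skeletal muscle markers summed to 62.6 to 77.9 and 5.6 to 9.42 CPM, nearly all of it Myh1, at 61.9, 59.2 and 51.9 CPM with Ad-C and 0.884, 2.28 and 1.24 CPM with Ad-Hif2a, and Myh8, which was at 13.4, 13.5 and 8.23 CPM with Ad-C and at most 0.118 with Ad-Hif2a. Both fell, and Acta1 rose by 2.47 on the log2 scale (SE 0.34, adjusted p = 0.00396). Sums of smooth muscle and of neural markers overlapped between the groups, as did those of osteoclast markers. Of the tested markers of endothelium (5), smooth muscle and pericytes (8), nerve and glia (6) and osteoclasts (4), 3 endothelial genes rose and 1 gene of each list fell, and none of these was called on omitting Ad-C replicate 1 or 3. No gene of the last 3 lists rose, but 1 smooth muscle and 1 neural marker were higher at an unadjusted p under 0.05 and were called by DESeq2.

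The study names 18 genes from or beside these libraries, all tested, of which 7 rose and 8 fell (4, 4 and 5 falls on omitting Ad-C replicate 1, Ad-C replicate 3 and Ad-Hif2a replicate 1). Since the study chose them on these samples, their directions are not independent evidence.

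A direct test of Ad-Hif2a against Ad-Hif1a called none of the 14413 genes (0%) by edgeR, 338 at an unadjusted p under 0.05, with 19 called by DESeq2 and 2 by edgeR without the replicate block. The count was 12 on omitting Ad-Hif2a replicate 3. The lowest adjusted p was that of Egln3 (0.0819), at 5.47 CPM on average with Ad-Hif1a, followed by Pgf (0.157), at 1.08. Epas1, the transgene of Ad-Hif2a, averaged 1665 CPM with Ad-Hif2a and 524 CPM with Ad-Hif1a. It stood 1.64 higher on the log2 scale (SE 0.40), without overlap between the libraries, and still was not called. Because the test missed the transgene itself, the lack of calls does not show that the vectors had the same effect. Both vectors share the same control libraries, so their responses against Ad-C are not compared here.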

How the data were processed

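Total RNA was sequenced from 9 libraries, of which the 3 Ad-C and 3 Ad-Hif2a libraries are compared here. The authors deposited whole-number read counts per gene symbol, unscaled and 1 library a file. Their processing notes name bcl2fastq 2.20.0.422, fastp, STAR, Salmon and build GRCm39, without roles or settings.

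Counts were filtered with filterByExpr of edgeR 4.0.16 (R 4.3.3, limma 3.58.1), scaled by TMM and fitted by the robust quasi-likelihood method with group and replicate number as terms, which left 4 residual degrees of freedom. The study names a paired test, hence the replicate term. P-values were adjusted by Benjamini-Hochberg with a threshold of 0.05. CPM values use TMM-scaled totals. Log2 CPM values use a prior count of 2, which was not applied to the fold changes, so these come from the fit. Alternatives were DESeq2 1.42.0, no replicate term, other scalings and filters, the 6 libraries alone and each library left out. Removal of a length trend and leaving out libraries with no replicate term were added after seeing the data. Lengths came from GENCODE vM21 and matched 12879 genes. Counts of 14234 genes were simulated with 50 genes changed at each size and no trend on length. Of the changes of Ad-Hif2a against Ad-C, 6% of 1.5-fold, 40% of 2-fold and 100% of 4-fold were called, beside 7 false calls. More genes changed in the data, so these shares may differ there.

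The members and the 49 lists (813 symbols) were chosen with earlier results of these data known. Library values are given for the first 2 symbols of each list, up to 4 further members with the lowest adjusted p, Epas1, Hif1a, and the 15 largest rises and falls with an average log2 CPM over 4 and the same direction in all 3 same-numbered pairs. Values of other members were chosen after their values were seen. Folds against a group at 0 were taken against 3 counts per library. Values of some list members are not reported here.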

Additional observations from a re-analysis of the deposited data

How the results depend on the processing

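With the length trend removed, 2046 of the 2049 called genes that could be tested again kept their sign, and under every other alternative all of the 2247 that could be tested did. Since these genes were called on the same libraries, kept signs were nearly given. The median fold change of a list could turn, as for Wnt genes (-0.19 to 0.08) and other matrix genes (-0.14 to 0.15) with the length trend removed. The count of changed genes, 2247, was 3452 with no replicate block and 3526 by DESeq2, which held 2240 and 2245 of the 2247. Rises numbered 1792 and 1825 under these, and falls 1660 and 1701. The counts with no composition factors (2316), RLE (2256), upper-quartile scaling (2278), no filter (2196), 10 counts in every library (1714) and the 6 libraries alone (1705, or 2584 with no replicate block) were within 1.5 times. With 1 library left out the count ran from 688 to 3309, rises from 425 to 1628, falls from 263 to 1681 and changes over 2-fold from 685 to 1954. With no replicate block as well these ranges were 1924 to 5511, 1001 to 2882, 923 to 2629 and 1457 to 3073. Among these, omitting Ad-Hif1a replicate 1 gave 3610 (1870 up, 1740 down), Ad-Hif2a replicate 3 gave 3462 (1746 up, 1716 down), and Ad-Hif1a replicate 3 gave 1730 up. Genes differing between Ad-Hif2a and Ad-Hif1a numbered 2 with no replicate block, 19 by DESeq2, 2 with no filter, 2 with the length trend removed, and 0 to 12 with 1 library left out. The cause of these shifts was not tested. Same-numbered libraries did not deviate together (correlations of -0.57 to 0.10, and 0.025, -0.10 and -0.096 between Ad-C and Ad-Hif2a), so no pairing by replicate number was seen. Whether the numbers mark a shared batch or litter was not tested. At 3 libraries a group with 4 residual degrees of freedom, many changes under 2-fold may have been missed. Some were called, and the smallest absolute log2 fold change that passed was 0.49. Epas1 rose by 4.84 to 5.63 on the log2 scale in every setting.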
